A study of Mus musculus with 6 samples.

Results

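The SLAM family receptors are 7 related surface proteins of blood cells, encoded by Slamf1, Cd48, Ly9, Cd84, Slamf6, Slamf7 and Cd244a. They were chosen as a named family, with earlier results of these data known, and taken from the count table by Entrez gene ID. All 7 were among its 27179 genes. The libraries came from the GFP-positive cells of a mouse acute myeloid leukemia labelled A/E9a;NRASG12D. That label stands for the leukemia fusion of RUNX1 and RUNX1T1, in a shorter splice form, together with a mutant NRAS, and all libraries carry both alleles in a C57BL/6 background. The 3 vehicle libraries and the 3 libraries from panobinostat, an inhibitor of histone deacetylases, were made after 3 days of treatment from viable cells sorted out of the spleen. The sources used here give no dose, age or sex. They also do not say whether each library came from its own mouse, so the spread between libraries may be technical.

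SLAM receptors carry immunoglobulin-like domains, and most bind a copy of themselves on a neighbouring cell. CD48 is the exception in form: it has no tail of its own, is held by a lipid anchor, and serves as the ligand of CD244 (the product of Cd244a) and of CD2. The tails of the others recruit the small adaptor SAP and its relatives, which bring in the kinase FYN, or recruit inhibitory phosphatases when adaptors are absent. In mouse bone marrow, CD150 (the product of Slamf1) together with absence of CD48 is widely used to sort hematopoietic stem cells.

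The 7 genes lie side by side on chromosome 1, from 171558718 to 171948958 in GRCm38, the assembly that mm10 represents, in the order Cd244a, Ly9, Slamf7, Cd48, Slamf1, Cd84 and Slamf6. RefSeq promoter windows, from 250 bases before to 50 after an annotated start, were matched for 6 members and not for Ly9. Those of Cd48, Slamf1 and Cd84 are shown because these 3 consecutive genes held the highest RNA levels per length with panobinostat. All 3 lie on the plus strand and are written 5′ to 3′, at chr1:171681742-171682041, chr1:171766882-171767181 and chr1:171839447-171839746 in RefSeq GRCm38.p6. The start of a window is not always the first base of the gene. Slamf1 and Cd84 begin at 171767131 and 171839697, within their windows. Cd48 begins at 171681245, before its window, and the windows of Cd244a and Slamf7 also lie inside the gene. Distances below are from the start used for each window. Capitals mark matches, on either strand, to the letters TGTGGT (RUNX) or AGGAAG (ETS).
Cd48: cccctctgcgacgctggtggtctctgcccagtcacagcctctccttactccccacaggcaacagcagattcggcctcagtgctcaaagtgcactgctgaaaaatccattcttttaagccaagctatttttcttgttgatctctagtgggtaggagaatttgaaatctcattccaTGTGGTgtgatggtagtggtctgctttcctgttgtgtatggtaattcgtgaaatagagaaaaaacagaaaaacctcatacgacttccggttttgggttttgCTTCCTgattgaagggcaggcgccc
Slamf1: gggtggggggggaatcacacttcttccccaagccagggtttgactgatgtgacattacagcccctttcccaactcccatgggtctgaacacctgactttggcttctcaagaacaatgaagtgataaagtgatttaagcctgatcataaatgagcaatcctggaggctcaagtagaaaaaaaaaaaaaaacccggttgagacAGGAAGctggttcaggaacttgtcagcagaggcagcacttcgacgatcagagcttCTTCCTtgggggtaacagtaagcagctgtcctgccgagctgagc
Cd84: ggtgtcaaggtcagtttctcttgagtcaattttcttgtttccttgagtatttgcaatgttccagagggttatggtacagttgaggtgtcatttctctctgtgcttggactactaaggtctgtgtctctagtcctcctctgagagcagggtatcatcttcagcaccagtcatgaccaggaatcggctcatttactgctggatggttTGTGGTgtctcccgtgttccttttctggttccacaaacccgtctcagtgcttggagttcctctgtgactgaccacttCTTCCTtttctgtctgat
The Cd48 and Cd84 windows each held 1 RUNX match, 76 and 45 bases before the start, and the Slamf1 window held 0. The Slamf1 window held 2 ETS matches, 49 bases before the start and at base 7 after it, and the windows of Cd48 and Cd84 each held 1. Over all 32851 RefSeq windows, 16.8% held the RUNX letters and 35.4% the ETS letters. GATA letters (AGATAA, in 11.2% of windows) and those of the interferon gamma type element (TTCNNNGAA, in 8.3%) were in none of the 6 member windows. The interferon-stimulated response element (ISRE) was searched in a short form, GAAANNGAA, found in 8.56% of windows, and in a longer form with a final A added, found in 3.44% of windows and in 0 of the 6 member windows. The short form, tried after the longer one had given 0, was matched at 2 places on the opposite strand of the Cd84 window, 29 bases before the start and from base 34 after it, where it overlaps the ETS match. It is not marked by capitals of its own. These are letter matches in a short window, not measured binding.

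Total counts were 25794869 to 32571961 per library, so that 1 count was worth 0.0315 to 0.0403 CPM (counts scaled by library size and composition), and 12916 genes were abundant enough to test. Hemoglobin genes took 0.614% to 0.847% of counts in vehicle libraries and 3.22%, 3.71% and 6.72% in panobinostat libraries 6, 5 and 1, which are named by the leading number of their count column. Kit, the stem cell factor receptor, was at 216 ± 5.49 CPM in vehicle (SD, n = 3), while Ptprc, which encodes the pan-leukocyte antigen CD45, was at 2.75 ± 0.554 CPM and Itgam, a chain of a myeloid integrin, at 0.296 ± 0.0923 CPM. Ptprc and Itgam were thus low in vehicle cells, but not every leukocyte gene was. Itgb2, whose product pairs with that of Itgam, was at 109 ± 8.37 CPM in vehicle.

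In vehicle cells the family was mostly Cd84. Levels of different genes were compared per length, as CPM per kb of exon. Cd84, a self-binding receptor known from platelets, mast cells and lymphocytes, was at 14.1 ± 2.23 CPM per kb (SD, n = 3) and made up 79.4% of the summed family level. Cd48 followed at 3.22 ± 1.09 CPM per kb and 17.8% of the sum. The other 5 lay far below, with Cd244a at 0.267 ± 0.197, Slamf1 at 0.134 ± 0.0489, Ly9 at 0.0797 ± 0.0293, Slamf7 at 0.0228 ± 0.0209 and Slamf6 at 0.00724 ± 0.00344 CPM per kb. Cd84 did not overlap Cd48, and Cd48 did not overlap Cd244a, in any vehicle library. Cd244a and Slamf1 overlapped, as did Slamf1 and Ly9, and Slamf7 and Slamf6.

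**Figure D1:**
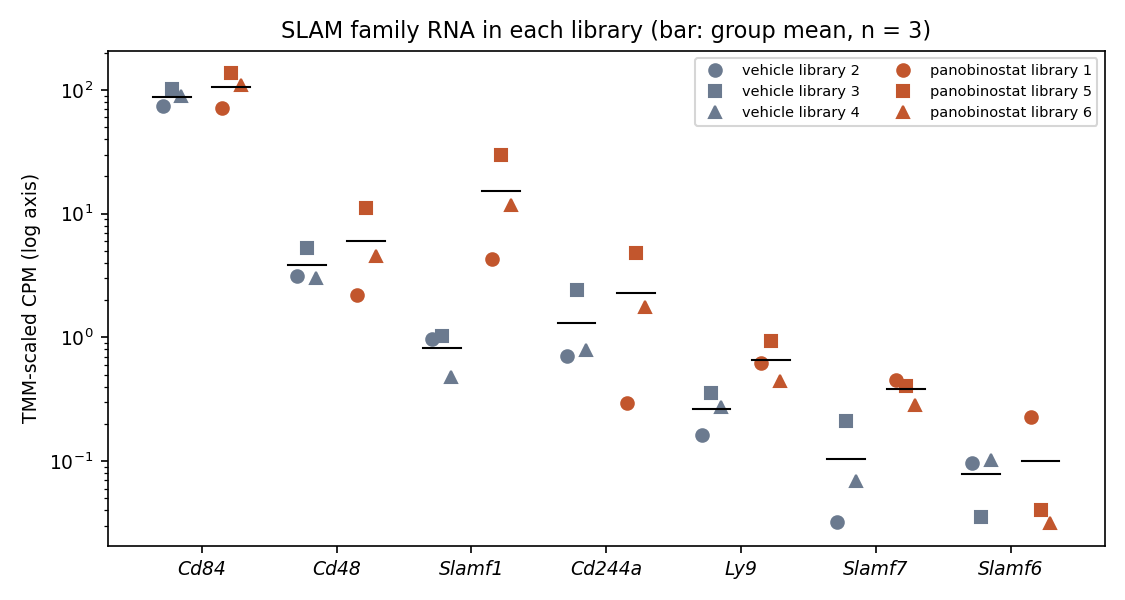
RNA of the 7 SLAM family genes, as TMM-scaled CPM on a log axis, in each vehicle (grey) and panobinostat (orange) library, with bars at the group means. Slamf1 was at 0.480 to 1.03 CPM in vehicle and 4.30 to 29.7 CPM with panobinostat, whereas Cd84, Cd48 and Cd244a overlapped between the groups.

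The comparison of panobinostat with vehicle asked how the family's RNA differed after treatment. Slamf1 had 18.3-fold more RNA with panobinostat, while Cd84, Cd48 and Cd244a overlapped between the groups. Ly9 and Slamf7 were higher at very low levels, and Slamf6 stayed near the level of a few counts. Because the family was selected with this contrast known, members are described by their values and no p is given for them. In bulk libraries fewer cells that express a gene and less RNA per cell cannot be told apart.

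Slamf1 encodes CD150, a self-binding receptor of stem cells, lymphocytes and activated macrophages, and is a receptor for measles virus in humans. It was at 0.969, 1.03 and 0.480 CPM in vehicle libraries 2, 3 and 4, and at 4.30, 29.7 and 11.7 CPM in panobinostat libraries 1, 5 and 6. Every panobinostat library was above every vehicle library, with library 5 the highest of the treated libraries and library 1 the lowest. The log2 fold change was 4.19 ± 0.74 (SE, n = 3 each). The fold was 9.65 when panobinostat library 5 was left out and 24.9 when library 1 was.

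Slamf1 was the 1 member of 5 tested that edgeR's quasi-likelihood fit across all genes called at a Benjamini-Hochberg adjusted p under 0.05, where 21.0% of all 12916 tested genes were called. Because the family was chosen with this contrast known, that call describes the fit and is not a test of the family. Slamf1 was no longer called without vehicle library 2 (20.1-fold) or without vehicle library 4 (15.1-fold). The panobinostat values lay above all vehicle values for Slamf1 and Ly9 among the 5 tested members and for the untested Slamf7. Over all tested genes this held for 21.9%. Ly9, with 5, 10 and 8 counts in vehicle libraries 2, 3 and 4, was tested only because of its panobinostat counts. Nothing is read from its place in this count.

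Cd48, the lipid-anchored ligand of CD244, was at 3.13, 5.32 and 3.02 CPM in vehicle libraries 2, 3 and 4 and at 2.22, 11.2 and 4.51 CPM in panobinostat libraries 1, 5 and 6. The treated libraries spanned both sides of the vehicle range, library 1 below it and library 5 above. Its log2 fold change of 0.64 ± 0.56 (SE, n = 3 each) turned to -0.18 without panobinostat library 5 and was 1.03 without library 1.

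Cd244a encodes 2B4, the CD48 receptor known from natural killer cells and mast cells. It was at 0.711, 2.41 and 0.788 CPM in vehicle libraries 2, 3 and 4 and at 0.293, 4.80 and 1.77 CPM in panobinostat libraries 1, 5 and 6. As for Cd48, library 1 was the lowest of all 6 libraries and library 5 the highest. The log2 fold change was 0.80 ± 0.89 (SE), -0.33 without panobinostat library 5 and 1.32 without library 1, and leaving out vehicle library 3 gave 1.59.

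Cd84 was at 73.5, 101 and 90.1 CPM in vehicle libraries 2, 3 and 4 and at 70.8, 136 and 109 CPM in panobinostat libraries 1, 5 and 6. Its log2 fold change was 0.25 ± 0.23 (SE, n = 3 each), 0.02 without panobinostat library 5 and 0.47 without library 1. For Slamf1, Cd48, Cd84 and Cd244a alike, the treated libraries stood in the order 5, 6, 1 from high to low, and vehicle library 3 was the highest vehicle library. Library 1, the lowest of the treated libraries for these 4 genes, also had the highest hemoglobin share, and the part of that difference in these values was not tested.

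Ly9 encodes CD229, a self-binding receptor of lymphocytes. It was at 0.162, 0.355 and 0.274 CPM in vehicle libraries 2, 3 and 4 and at 0.619, 0.927 and 0.441 CPM in panobinostat libraries 1, 5 and 6. The groups did not overlap, but the values rested on 5 to 10 counts per vehicle library and 14 to 23 per panobinostat library. Ly9 passed the filter on low counts only through the latter. The log2 fold change was 1.31 ± 0.45 (SE).

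Slamf7 and Slamf6 had too few counts to be tested. Slamf7, a self-binding receptor of natural killer cells, plasma cells and macrophages, had 1, 6 and 2 counts in vehicle libraries 2, 3 and 4. Panobinostat libraries 1, 5 and 6 had 14, 10 and 9. Those values did not overlap. Slamf7 was tested without a filter on low counts and in 4 of the fits that left out a library, which it entered only through its panobinostat counts. It was called in 1 of these 5, the one without vehicle library 3, where it was highest among vehicle libraries, and nothing is read from that call. Slamf6, which encodes the lymphocyte receptor Ly108, had 3, 1 and 3 counts in vehicle and 7, 1 and 1 with panobinostat, so no difference was detectable at this depth. Both genes were close to the detection limit in both groups.

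Within a library the members can be compared with each other without reference to library scaling. The ratio of Slamf1 to Cd48, both per length, was 0.0597, 0.0373 and 0.0307 with vehicle (libraries 2, 3 and 4). It was 0.375, 0.512 and 0.501 in panobinostat libraries 1, 5 and 6. This ratio varied far less among the 3 treated libraries than the level of either gene. That did not hold among the vehicle libraries, where Slamf1 was at 0.480 to 1.03 CPM and Cd48 at 3.02 to 5.32 CPM. Relative to Cd84 the ratio of Slamf1 was 0.00543 to 0.0134 in vehicle and 0.0619, 0.222 and 0.11 in libraries 1, 5 and 6. Cd244a to Cd48 was 0.0553 to 0.111 in vehicle and 0.0323, 0.104 and 0.0955 in the treated libraries, which overlapped. With panobinostat the order per length was Cd84 (16.8 ± 5.25 CPM per kb, SD, n = 3), Cd48 (5.03 ± 3.93), Slamf1 (2.48 ± 2.12), Cd244a (0.469 ± 0.471), Ly9 (0.20 ± 0.0744), Slamf7 (0.0833 ± 0.0193) and Slamf6 (0.00923 ± 0.0103). Cd48 and Slamf1 overlapped across the treated libraries, although Cd48 was higher in each of the 3, and Slamf1 overlapped Cd244a in the same way.

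**Figure D2:**
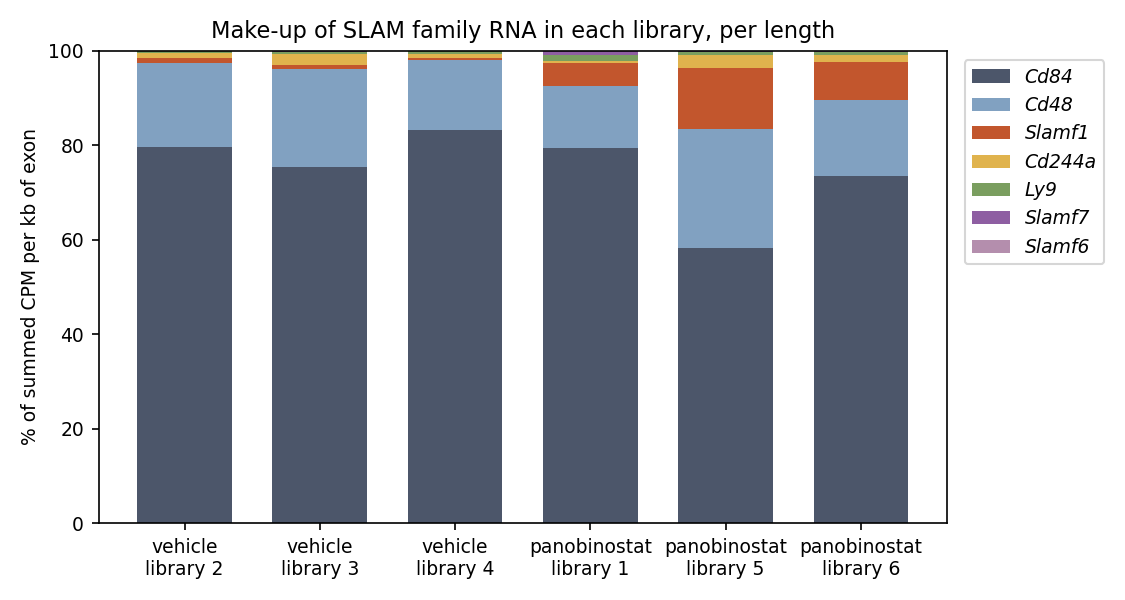
Share of each member in the summed SLAM family level, in percent of CPM per kb of exon, for each library. Cd84 held 75.3% to 83.3% in vehicle and 58.2% to 79.4% with panobinostat, and Slamf1 went from 0.452% to 1.07% in vehicle to 4.92%, 12.9% and 8.06% in panobinostat libraries 1, 5 and 6.

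The related receptors outside the 7 were hardly detected. Slamf8, known from macrophages, had 3 counts in all vehicle libraries together and 16 with panobinostat, 10 of them in library 1. Slamf9 had 3 and 5 counts, and Cd2, the second receptor for CD48, had 12 and 21. None of them was abundant enough to test.

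By a rule of likeness, the 3 tested genes of at least 5 CPM on average with the smallest root mean square difference from each member were listed, on log2(CPM + 0.5) centred on each gene's mean over the 6 libraries. These are descriptions over 6 libraries that fall into 2 groups, among 9412 candidate genes. Closest to Slamf1 were Map1a, a microtubule-associated protein (0.22 on the log2 scale), the receptor Notch3 (0.39) and the aspartic protease Napsa (0.43). None of them was above 1.38 CPM in any vehicle library, so they reached the mean of 5 CPM only through the panobinostat libraries. Genes this low in vehicle could be candidates only if they were higher with panobinostat, so their likeness to Slamf1 is partly set by the rule. Napsa was at 0.711, 1.38 and 0.857 CPM in vehicle and at 4.56, 21.9 and 6.56 CPM in panobinostat libraries 1, 5 and 6. An order of libraries shared with the member follows from how these genes were picked and is not a further result. Closest to Cd48 were Tpbgl (0.18), the adhesion receptor Adgrg3 (0.19) and Zfp608 (0.20), and closest to Cd84 were Cdc14b (0.05), the actin regulator Cap1 (0.05) and Fam102a (0.06). For Cd244a they were the phosphatase receptor Ptprf (0.11), Tph1, the enzyme that starts serotonin synthesis (0.16), and the cytokine gene Tnf (0.20). Tph1 was at 39.4, 92.9 and 30.5 CPM in vehicle and at 25.1, 170 and 73.0 CPM in libraries 1, 5 and 6. For Ly9 they were D17H6S53E, Pigp and Hbp1 (0.07 to 0.09).

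Partner genes of the receptors were next compared, from lists chosen by role: adaptors and kinases, phosphatases, the partners described for Slamf1 and for Slamf7 in macrophages, and markers sorted together with CD150 and CD48. Together with the 3 related receptors above, the lists held 66 genes, of which 50 were tested, 7 rose and 1 fell by edgeR's quasi-likelihood test across all genes. That is 16% called, against 21.0% of all tested genes, with a median log2 fold change of 0.25 against 0.01.

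Of the 24 adaptor and kinase genes 21 were tested, 3 rose and none fell. The dedicated adaptors were at the detection limit. Sh2d1a, which encodes SAP, had 3 counts in all vehicle libraries and 1 with panobinostat, and its relative Sh2d1b1 (EAT-2) had 10 and 9. Fyn, the kinase that SAP recruits, was at 105 ± 5.68 CPM in vehicle and 89.9 ± 14.3 CPM with panobinostat (SD, n = 3 each; edgeR adjusted p = 0.23).
The 3 that rose were Dok1, an adaptor that restrains RAS signalling (40.9 ± 2.78 to 76.0 ± 11.0 CPM; adjusted p = 0.0066 by edgeR's quasi-likelihood test), the Src family kinase Fgr (0.511 ± 0.116 to 1.45 ± 0.633 CPM; edgeR adjusted p = 0.037) and Vav1, a guanine nucleotide exchange factor (126 ± 5.35 to 154 ± 2.62 CPM; edgeR adjusted p = 0.039). The call of Fgr was lost without any 1 of the vehicle libraries or without panobinostat library 5 (edgeR adjusted p from 0.075 to 0.14). That of Vav1 was lost in 5 of the 6 fits that left out a library (0.077 to 0.16) and with library size as the only scaling (0.12) or without a filter on low counts (0.083).

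Of 5 tested phosphatases that bind SLAM tails or act on them, 1 rose and none fell. Inpp5d, which encodes the lipid phosphatase SHIP1, was at 298, 317 and 286 CPM in vehicle libraries 2, 3 and 4 and at 352, 528 and 423 CPM in panobinostat libraries 1, 5 and 6. Its groups did not overlap and its log2 fold change was 0.53 ± 0.15 (SE; edgeR adjusted p = 0.045). The call was lost without any single library other than panobinostat library 1 (edgeR adjusted p from 0.085 to 0.16) and with library size alone (0.085). Ptpn6, which encodes the tyrosine phosphatase SHP-1, was at 180 ± 2.83 and 160 ± 20.7 CPM (edgeR adjusted p = 0.29), and was called lower without panobinostat library 1 (0.030). Ptprc was at 3.18 ± 1.34 CPM with panobinostat (edgeR adjusted p = 0.69).

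None of the 5 genes of the VPS34 lipid kinase complex, described with CD150 in phagosomes, was called by edgeR, DESeq2 or limma-voom. At an unadjusted p under 0.05 by edgeR there were 2 of 5, Becn1 (102 ± 3.04 and 124 ± 14.7 CPM; edgeR adjusted p = 0.083) and Atg14 (12.4 ± 1.51 and 16.6 ± 3.28 CPM; edgeR adjusted p = 0.13), where 36.8% of all tested genes were under it. Of the 6 genes described with Slamf7 in macrophages 1 rose. That was Itgb2, the shared chain of the leukocyte integrins, at 99.5, 116 and 110 CPM in vehicle and 206, 271 and 225 CPM in panobinostat libraries 1, 5 and 6 (log2 fold change 1.11 ± 0.12 SE; edgeR adjusted p = 0.0042). Itgam, the chain that pairs with Itgb2 in the integrin Mac-1, was at 0.360 ± 0.154 CPM with panobinostat (edgeR adjusted p = 0.71).

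Of 13 tested markers sorted together with CD150 and CD48, 2 rose and 1 fell. Itga2b, which encodes CD41 of megakaryocytes and early progenitors, was at 13.3, 22.7 and 12.4 CPM in vehicle and 92.2, 134 and 72.2 CPM in panobinostat libraries 1, 5 and 6 (log2 fold change 2.62 ± 0.31 SE; edgeR adjusted p = 0.0043). Ly6a, which encodes Sca-1, went from 0.194, 0.284 and 0.343 CPM to 2.84, 3.99 and 1.45 CPM (log2 fold change 3.31 ± 0.47 SE; edgeR adjusted p = 0.0067). These values rested on 6, 8 and 10 counts in vehicle and 87, 99 and 46 with panobinostat. Ly6a passed the filter on low counts only through its panobinostat counts, and nothing is read from its place among the genes that rose. Ctnnal1, the alpha-catulin gene used as a stem cell marker, fell from 126 ± 17.8 to 60.0 ± 13.2 CPM (edgeR adjusted p = 0.011; 0.056 without vehicle library 4). Kit was at 238 ± 79.0 CPM with panobinostat (edgeR adjusted p = 0.68). The stem cell gate of CD150 with Sca-1 and Kit and without CD48 is a pattern of single cells, which bulk RNA does not show.

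**Figure D3:**
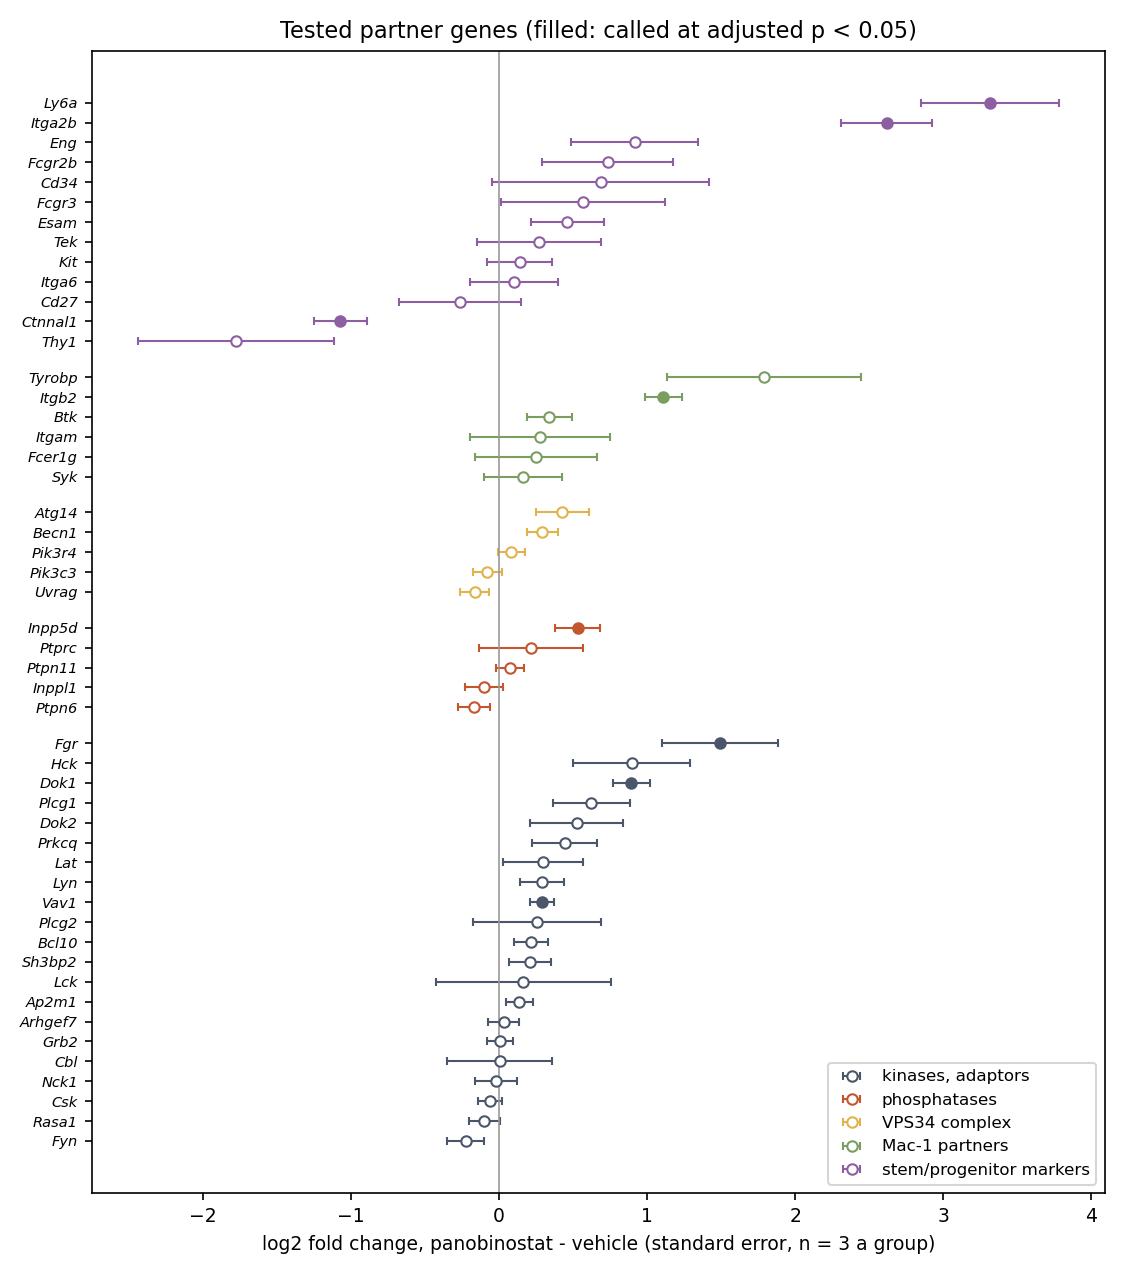
Log2 fold changes (panobinostat minus vehicle) with standard errors for the 50 tested partner genes, grouped by role, with filled points for genes called by edgeR. The 8 filled points are Dok1, Fgr, Vav1, Inpp5d, Itgb2, Ly6a and Itga2b above 0 and Ctnnal1 below 0.

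Genes around the cluster were compared to see whether Slamf1 moved alone. The window of the cluster and 500 kb on each side held 82 other annotated genes, 40 of them in the table and 28 tested. Of these 2 rose and 1 fell by edgeR's quasi-likelihood test, a smaller share than the 21.0% called over all genes, with a median log2 fold change of 0.18. F11r, which encodes the junctional adhesion molecule JAM-A (chromosome 1, 171437561 to 171464593), was at 1.71, 2.66 and 1.03 CPM in vehicle libraries 2, 3 and 4 and 9.75, 18.4 and 8.23 CPM in panobinostat libraries 1, 5 and 6. Its groups did not overlap, and its log2 fold change was 2.75 ± 0.43 (SE; edgeR adjusted p = 0.0092; 0.055 without vehicle library 2). Ncstn, a subunit of the gamma-secretase protease, was at 97.8 ± 5.99 and 125 ± 8.91 CPM (edgeR adjusted p = 0.034). Igsf8, a partner of tetraspanins, fell from 43.6 ± 1.11 to 30.8 ± 5.66 CPM (edgeR adjusted p = 0.045). The last 2 calls were lost without any 1 vehicle library or without panobinostat library 5 (0.077 to 0.15), and that of Ncstn also with library size alone (0.088) and without a filter on low counts (0.052).

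**Figure D4:**
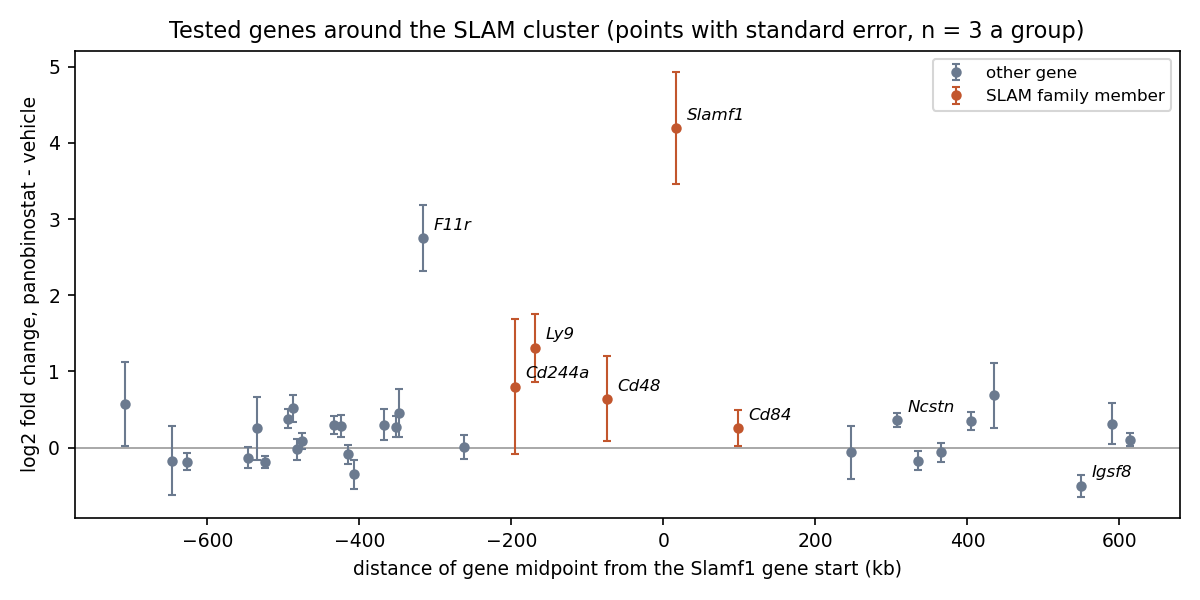
Log2 fold changes (panobinostat minus vehicle) with standard errors for tested genes around the SLAM cluster, against the distance of each gene's midpoint from the start of Slamf1 in kb. Slamf1 at 4.19 and F11r at 2.75 stand apart from the other tested genes of the window, whose values lay between -0.50 for Igsf8 and 1.31 for Ly9.

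Non-coding genes that overlap members in RefSeq (Gm35200 at Cd244a, Gm51686 at Cd84, Gm37065 at Slamf6 and Mir7683 at Slamf7) were not analysed here, and with an unknown strand setting their reads cannot be told apart from those of the members where exons overlap.

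Because SLAM receptors are best known from lymphocytes, natural killer cells, macrophages and platelets, markers of those cells were set beside the members. The 7 T cell markers summed to 0.808 to 1.13 CPM in vehicle and to 1.83, 0.766 and 1.45 CPM in panobinostat libraries 1, 5 and 6. None of the 7 was abundant enough to test, and their part in the Slamf1 values was not tested. The 7 B cell markers summed to 3.81 to 7.03 CPM in vehicle and to 9.65, 5.16 and 8.73 CPM in the treated libraries, and none of the 6 tested was called by edgeR, DESeq2 or limma-voom, with 1, Cr2, at an unadjusted p under 0.05 (edgeR adjusted p = 0.10). The 7 natural killer markers summed to 4.30 to 11.0 CPM in vehicle and to 1.92, 15.6 and 5.64 CPM in libraries 1, 5 and 6, nearly all of it Nkg7, while Ncr1 had 0 or 1 counts in every library.

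The 11 macrophage markers summed to 9.72 to 15.3 CPM in vehicle and to 45.8, 24.3 and 14.2 CPM in panobinostat libraries 1, 5 and 6. Of 9 tested, edgeR called 1 higher, Vcam1, DESeq2 called 2 and limma-voom called none. All 9 had a positive log2 fold change by edgeR, with a median of 1.29, against 0.01 over all tested genes. At an unadjusted p under 0.05 by edgeR there were 3 (33.3%), against 36.8% of all tested genes. The macrophage sum was highest in library 1, as were the counts of Slamf7, Slamf6 and Slamf8, and its part in those values was not tested. The 7 platelet and megakaryocyte markers summed to 72.3 to 97.6 CPM in vehicle and to 264, 371 and 213 CPM in libraries 1, 5 and 6. Of 6 tested, 5 were called higher by edgeR, 5 were called by DESeq2 and 3 by limma-voom. Over all tested genes 11.3% were called higher by edgeR. Among these 5 markers, Gp9 had 3, 6 and 5 counts in vehicle and 111, 23 and 20 in panobinostat libraries 1, 5 and 6. It passed the filter on low counts only through the latter, and nothing is read from its call. Itga2b, 1 of the 5, was also counted above among the markers sorted with CD150. CD150 is also carried by cells of the megakaryocyte lineage, and the part of the rise of these platelet and megakaryocyte markers in the Slamf1 values was not tested. Plasma cell, dendritic cell and neutrophil markers were checked as well. Plasma cell markers summed to 4.32 to 7.21 CPM in vehicle and 10.4 to 23.8 CPM with panobinostat. The higher sum came from Prdm1, which other cells also express, the 1 called gene of 3 tested (mean 2.55 and 13.7 CPM). Mean levels of Sdc1 (1.66 and 1.15 CPM), Jchain (0.891 and 0.582) and Mzb1 (0.238 and 0.166) were lower with panobinostat. Tnfrsf17 had 0 counts in vehicle and 1 with panobinostat. For plasmacytoid dendritic cells the sums were 4.73 to 7.43 and 5.52 to 13.1 CPM (0 of 4 tested genes called by edgeR, 0 at an unadjusted p under 0.05). For conventional dendritic cells they were 8.29 to 11.1 and 17.5 to 23.0 CPM (2 of 3 called higher by edgeR). Clec9a, 1 of these 2, had 6, 7 and 5 counts in vehicle and 23, 81 and 45 with panobinostat. It passed the filter on low counts only through its panobinostat counts. For neutrophils the sums were 2.23 to 5.67 and 1.83 to 5.71 CPM (0 of 2 called by edgeR, also 0 at an unadjusted p under 0.05).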

How the data were processed

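The authors deposited raw read counts for each Entrez gene ID, with 1 column per library. The submitters' processing notes name cutadapt 2.1, HISAT2 2.1.0 and featureCounts (Subread 2.0.0), with the build mm10. The sources used here do not name the annotation, the strand setting or the rule for reads that map more than once. Columns were tied to groups by the words treated and control and carry no replicate number.

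RefSeq (GRCm38.p6) named 25275 of 27179 genes. Genes were kept by edgeR's filterByExpr, scaled by TMM and tested with edgeR 4.0.16's quasi-likelihood F test (R 4.3.3); the model held treatment alone, and p-values were adjusted over 12916 genes by Benjamini-Hochberg. A standard error is the size of the log2 fold change over the root of its F value. Lengths are unions of GENCODE M21 exons. The fit was tested on simulated data. DESeq2 1.42.0 and limma 3.58.1 (voom) were alternatives.

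Members and lists were chosen with earlier results of these data known. Named genes were the members, up to 3 called genes per list and direction with the smallest p, a fixed set that was always named, and the genes most like each member. Becn1, Atg14, Itgam, Cr2, Ncr1, Nkg7, Vcam1, Prdm1, Gp9 and Clec9a were named after their values were seen.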

Additional observations from a re-analysis of the deposited data

How the results depend on the processing

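No paired analysis was possible because the count columns carry no replicate number. When each library was left out in turn, the number of genes called ranged from 438 to 4056 over all genes (2715 with all libraries), from 0 to 2 among the members (1), from 4 to 15 among the partner genes (8) and from 0 to 7 among the neighbours of the cluster (3). DESeq2 called 5 neighbours. Under each other scaling, filter and test the count of called members was 1. Library size as the only scaling moved the median over all genes from 0.01 to -0.10 (log2) and the share of calls that were higher from 53.8% to 35.5%. The 5 tested members kept positive log2 fold changes under it, relative to a median that fell by about that amount, with Slamf1 at 4.09 and Cd84 at 0.15. The fold of Slamf1 was 13.7 with limma-voom and 18.5 with DESeq2. For members with under 25 counts in every library (Ly9, Slamf7, Slamf6), depth limits what can be seen.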
